A study of Mus musculus with 26 samples.

Results

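The mouse optic nerve head (ONH) was compared with the nerve behind it, the myelinated optic nerve proper (ONP), in 6 libraries of immunoprecipitated (IP) RNA from each. The libraries were chosen by their labels alone, as the ONH and ONP libraries of sequencing batch 1, replicate numbers 1 to 6, which are 12 of the 26 libraries in the series. The other 14 are 12 retinal libraries and 1 further library from each nerve region, all sequenced in batch 2. All animals of both groups were untreated and are labelled day 0. RNA was captured by its poly(A) tail and amplified with a kit for very small inputs, and the series describes the IP RNA as that of astrocytes. The tag that was precipitated, the promoter or cell type that drives it, the age and strain of the animals, and whether animals were pooled are not given in the sources used here. No input library of the nerve was analysed here, so enrichment over whole nerve could not be measured.

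The optic nerve head is where the axons of retinal ganglion cells turn out of the eye. Its axons carry no myelin in the mouse, and its astrocytes form a glial meshwork around the axon bundles, while behind it oligodendrocytes wrap the axons of the nerve proper in myelin. The head borders the retina, the pigment epithelium, the choroid and the sclera, and it is the site at which axons are first damaged in glaucoma. In myelinated tracts, oligodendrocytes and astrocytes make cholesterol locally, since little of it crosses from the blood.

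Estimated counts per library ran from 14432132 to 27431026, and 17762 to 20240 genes had counts. Levels are in CPM, each count relative to the TMM-scaled total of its library. Differences are log2 fold changes of ONH over ONP, with a standard error (SE) worked back from the test, and are positive where ONH was higher. Defining astrocyte genes were abundant in both groups. Gfap, the astrocyte intermediate filament, stood at 7162 to 19330 CPM in ONH and at 9294 to 24820 CPM in ONP. RNA of other cells was present as well. The 20 listed genes of myelinating oligodendrocytes summed to 2.87% to 7.47% of the library in ONH and to 3.68% to 12.8% in ONP. The 2 libraries of replicate number 5 stood apart from the rest. Their summed microglia genes stood at 448 and 489 CPM, against 2330 to 4720 CPM in the other libraries, and the myelin sum of ONP replicate 5 (36800 CPM) lay among the ONH values. Fibroblast genes summed to 2870 CPM in ONP replicate 1 and to 601 to 788 CPM in the other ONP libraries. In bulk libraries, fewer cells of a type and less RNA per cell cannot be told apart. Whether each library stands for its own animals is not stated, and the p-values therefore reflect only how much these libraries vary.

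edgeR's quasi-likelihood test called 1257 of 14753 genes higher in ONH (8.52%) and 1178 lower (7.98%) at an adjusted p under 0.05, together 16.5% of the genes tested. The higher side reached much further. Of the genes called, 176 were over 4-fold higher and 25 over 4-fold lower by estimate, and 44 were over 16-fold higher. Against a 2-fold threshold, edgeR called 63 genes higher (0.427%) and 0 lower (0%), while 150 were lower at an unadjusted p under 0.05. Libraries of both groups shared replicate numbers, and with the number as a block 1858 genes were called higher (12.6%) and 1978 lower (13.4%), in all 26% of the genes tested. Of the genes called without the block, 1221 of the higher and 1162 of the lower were also called with it. The median log2 fold change over all genes tested was -0.02. Leaving out ONH replicate 1 lowered the counts to 725 and 559, ONH replicate 3 to 760 and 665, and ONP replicate 4 to 798 and 638. Without ONP replicate 6, 699 genes were lower.

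**Figure D1:**
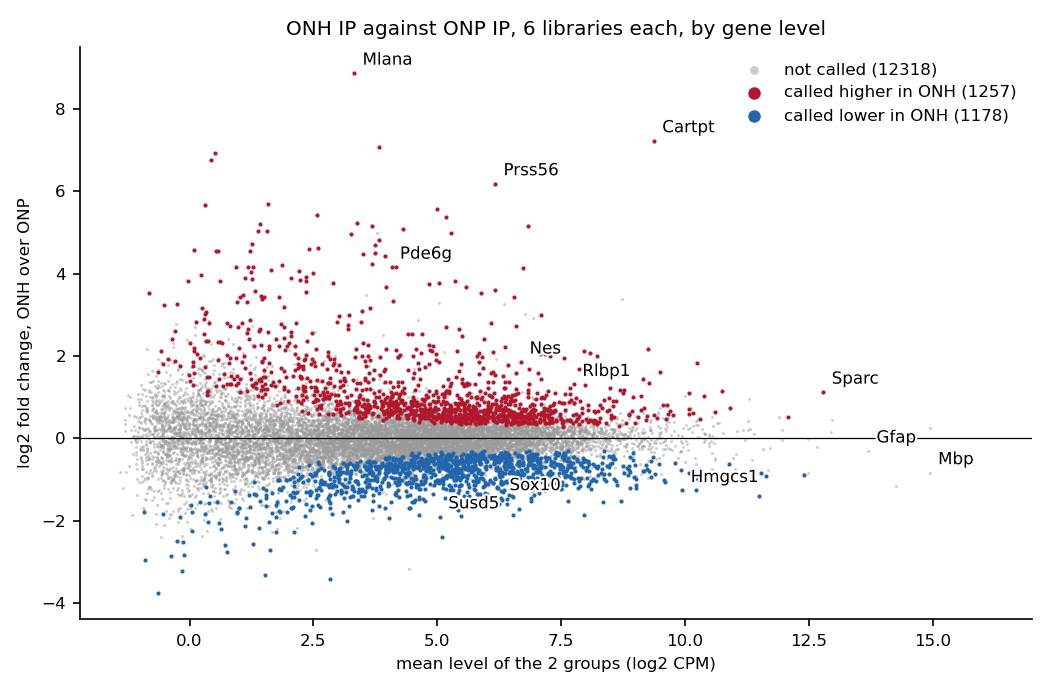
Log2 fold change of ONH over ONP (vertical axis) against the mean level of the 2 groups in log2 CPM (horizontal axis), 1 point per gene tested. The 1257 genes called higher (red) reach far larger fold changes than the 1178 called lower (blue).

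The largest increases in ONH belonged to neuropeptide, pigment cell and retinoid genes. Cartpt (ENSMUSG00000021647, mm10 chromosome 13, 99898489 to 99901091), which encodes the precursor of the neuropeptide CART, had the highest CPM of them, a scale that does not allow for gene length. Its level ran from 273 over a median of 1381 to 2412 CPM in the ONH libraries, and from 1.39 over 3.58 to 36.0 CPM in ONP. Every ONH library was thus above every ONP library, and the highest ONP value was that of replicate 5 (log2 fold change 7.23, SE 0.925, adjusted p = 0.000886). Prss56 (ENSMUSG00000036480, chromosome 1, 87183313 to 87188405), a serine protease gene tied to eye size, stood at 55.5, 142 and 234 CPM (lowest, median and highest) in ONH. In ONP it stood at 0.14, 0.418 and 8.74 CPM, again highest in replicate 5 (6.19, SE 0.887, adjusted p = 0.0017). Clec18a, a C-type lectin gene, ran from 4.77 to 52.9 CPM in ONH and from 0.288 to 1.92 CPM in ONP (4.81, SE 0.567, adjusted p = 0.000565). Krt18, a keratin of simple epithelia, ran from 5.76 to 44.3 CPM and from 0.0718 to 0.979 CPM (5.24, SE 0.632, adjusted p = 0.000585). Pon1, a paraoxonase gene, had a log2 fold change of 5.44 (SE 0.898, adjusted p = 0.00355). These 5 genes were named under a rule that required no overlap between the groups, so their separation is no further result. Over all genes tested, 3.15% had all ONH libraries above all ONP libraries and 2.32% all below.

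Among called genes that did not overlap between groups and averaged at least 10 CPM in ONP, the 12 largest decreases were about 3-fold to 4-fold, and several were genes of the oligodendrocyte lineage. Cidea (ENSMUSG00000024526, chromosome 18, 67343604 to 67367785), a lipid droplet protein gene, ran from 3.46 over a median of 4.90 to 11.7 CPM in ONH. In ONP it ran from 13.4 over 23.6 to 40.8 CPM, with no overlap (-1.95, SE 0.36, adjusted p = 0.00559). Susd5 (ENSMUSG00000086596, chromosome 9, 114057140 to 114098728), which encodes a protein with a sushi domain, ran from 0.806 to 24.2 CPM in ONH and from 43.5 to 82.3 CPM in ONP (-1.90, SE 0.526, adjusted p = 0.0273). Without ONH replicate 1 or ONP replicate 4 it was not called (adjusted p = 0.0579 to 0.0621). Its call was also lost without the low-count filter and without both libraries of number 1, 2, 5 or 6. Gpr17, a receptor of oligodendrocyte precursors on their way to differentiation, ran from 18.2 to 77.4 CPM in ONH and from 119 to 192 CPM in ONP (-1.73, SE 0.314, adjusted p = 0.00526). Sox8, a transcription factor of the same lineage, was at -1.59 (adjusted p = 0.00313), and Neu4, a sialidase gene of precursors, at -1.51 (adjusted p = 0.00884). The neural gene Vxn (-1.86, adjusted p = 0.00222), the complement protease gene Masp1 (-1.70, adjusted p = 0.0152) and the neurexin ligand gene Nxph1 (-1.65, adjusted p = 0.011) were lower as well. So were the lipid phosphatase gene Plpp4 (-1.63, adjusted p = 0.008) and the Myc family gene Mycl (-1.55, adjusted p = 0.00864). Megf11, an adhesion receptor gene, was at -1.53 (adjusted p = 0.0417), and the call was lost in 8 of the 12 single-library omissions, those of ONH replicates 1, 4 and 5 and ONP replicates 1, 2, 3, 4 and 6 (adjusted p = 0.0511 to 0.0776).

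**Figure D2:**
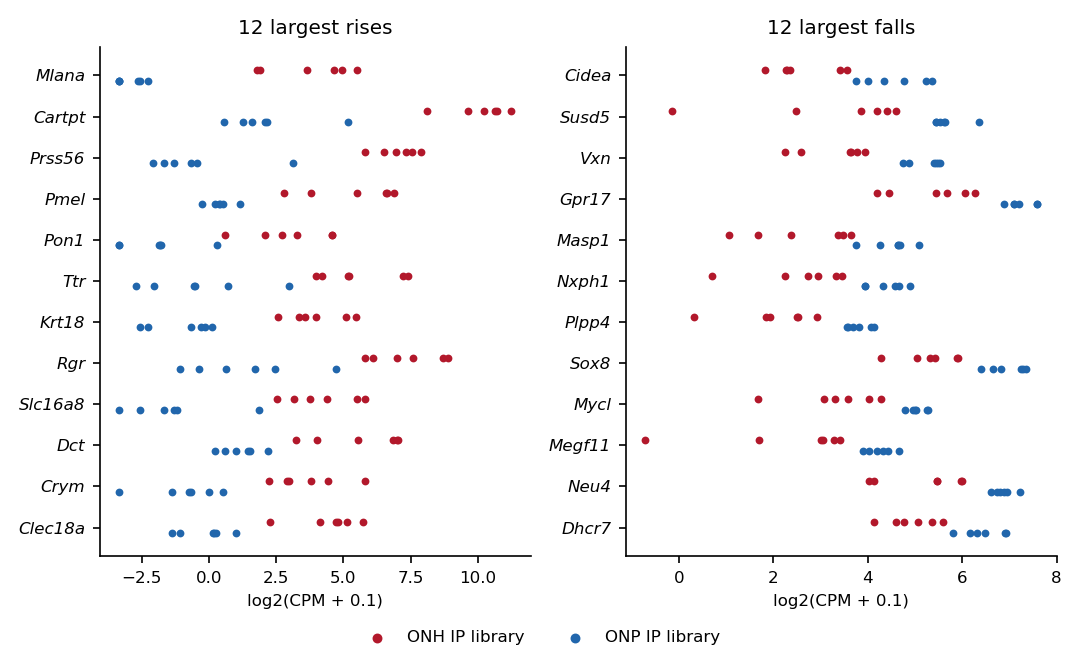
Level of each gene as log2(CPM + 0.1) in the 6 ONH libraries (red) and the 6 ONP libraries (blue), for the 12 genes with the largest increase and the 12 with the largest decrease that did not overlap between groups. Cartpt ran from 273 to 2412 CPM in ONH and from 1.39 to 36.0 CPM in ONP.

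For the first gene in each direction that has an entry, the promoter is shown, from 250 bases before to 50 after the start in RefSeq's table for GRCm38.p6. Capitals mark GGGCGG, the core of a GC box, and in Susd5 also TGANTCA, the shape bound by AP-1 factors, each on either strand.
Cartpt, chr13:99900634-99900933, minus strand: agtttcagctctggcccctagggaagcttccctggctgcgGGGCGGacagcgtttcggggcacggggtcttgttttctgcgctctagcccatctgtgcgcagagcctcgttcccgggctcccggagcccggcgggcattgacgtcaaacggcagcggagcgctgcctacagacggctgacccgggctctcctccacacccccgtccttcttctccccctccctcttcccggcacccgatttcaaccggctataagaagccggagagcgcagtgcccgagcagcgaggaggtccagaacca
Susd5, chr9:114057104-114057403, plus strand: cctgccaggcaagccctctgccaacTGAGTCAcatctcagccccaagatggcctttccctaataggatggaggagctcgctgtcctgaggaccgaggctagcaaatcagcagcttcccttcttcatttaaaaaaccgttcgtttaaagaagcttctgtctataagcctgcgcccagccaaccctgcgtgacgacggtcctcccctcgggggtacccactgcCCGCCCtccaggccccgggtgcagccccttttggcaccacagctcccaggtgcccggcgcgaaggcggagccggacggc
Cartpt held 1 GGGCGG, whose first base lies 210 bases before the start. Susd5 held 1 GGGCGG 29 bases and 1 TGANTCA 225 bases before it. Of the 32851 promoters in the table, 35.7% hold GGGCGG and 7.81% hold TGANTCA. Neither window held TATAAA, the letters of a TATA box.

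Most tested pigment cell genes and all tested photoreceptor genes were called higher in ONH. Of 11 tested genes of melanocytes and the pigment epithelium, 8 were called higher and 0 lower, with a median log2 fold change of 4.61 (1 lower with the block and without ONP replicate 1 or 2). Mlana (ENSMUSG00000024806, chromosome 19, 29697824 to 29708634), a melanosome protein gene, ran from 3.32 to 45.2 CPM in ONH and from 0 to 0.107 CPM in ONP, where all 6 libraries together held 4 counts (8.88, SE 0.938, adjusted p = 0.000252). The melanosome fibril gene Pmel ran from 6.84 over a median of 69.8 to 118 CPM, against 0.738, 1.22 and 2.13 CPM (5.56, adjusted p = 0.000585). Dct, an enzyme of melanin synthesis, was at 4.99 (adjusted p = 0.00114) and Ttr, the retinol and thyroxine carrier, at 5.38 (adjusted p = 0.0056). Levels of pigment genes were uneven among ONH libraries, with Pmel and Dct highest in replicates 1 to 3 and lowest in replicate 5. A further pair of epithelial genes lay among the 12 largest increases. Rgr, a retinal opsin of pigment epithelium and Müller glia, ran from 55.7 to 467 CPM in ONH and from 0.375 to 26.6 CPM in ONP (5.17, adjusted p = 0.00837). Slc16a8, a lactate transporter of the pigment epithelium, ran from 5.76 to 55.9 CPM and from 0 to 3.57 CPM (5.16, adjusted p = 0.00549).

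All 14 photoreceptor genes that were tested were called higher, of 17 listed, with a median of 3.72 (13 with the block, 6 with limma-voom, 6 without both libraries of number 1). Their summed level ran from 117 to 1040 CPM in ONH and from 32.1 to 125 CPM in ONP, so the lowest ONH library, replicate 5, lay below the highest ONP library, also replicate 5. The phosphodiesterase subunit gene Pde6g ran from 4.57 to 76.2 CPM and from 0.246 to 3.85 CPM (4.16, adjusted p = 0.00676). Rom1, a disc rim protein gene, had a smaller and more even difference, from 49.2 to 125 CPM and from 24.5 to 35.6 CPM (1.56, SE 0.22, adjusted p = 0.00135). The cone opsin gene Opn1sw was at 2.66 (adjusted p = 0.00743). Of 5 tested genes of other retinal neurons, 2 were called higher and 1 lower (2 lower without ONH replicate 4). Trpm1, a cation channel gene of bipolar cells, was at 4.01 (adjusted p = 0.00295). Members that passed the filter on low counts mainly through the ONH libraries had to differ, so these counts and medians are descriptions. The part of such cells in the genes that follow was not tested.

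In the Müller glia list, 4 of 12 tested genes were called higher and 0 lower, with a median of 0.596. Rlbp1 (ENSMUSG00000039194, chromosome 7, 79374870 to 79387048), the retinaldehyde-binding protein of Müller glia and pigment epithelium, ran from 188 over a median of 319 to 406 CPM in ONH. In ONP it ran from 62.5 over 130 to 175 CPM, without overlap (1.31, SE 0.264, adjusted p = 0.00813). Cp, the copper-carrying ferroxidase ceruloplasmin, had a log2 fold change of 0.99 (SE 0.2, adjusted p = 0.00822). Crym, a thyroid hormone-binding crystallin, was at 4.96 (adjusted p = 0.00251).

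**Figure D3:**
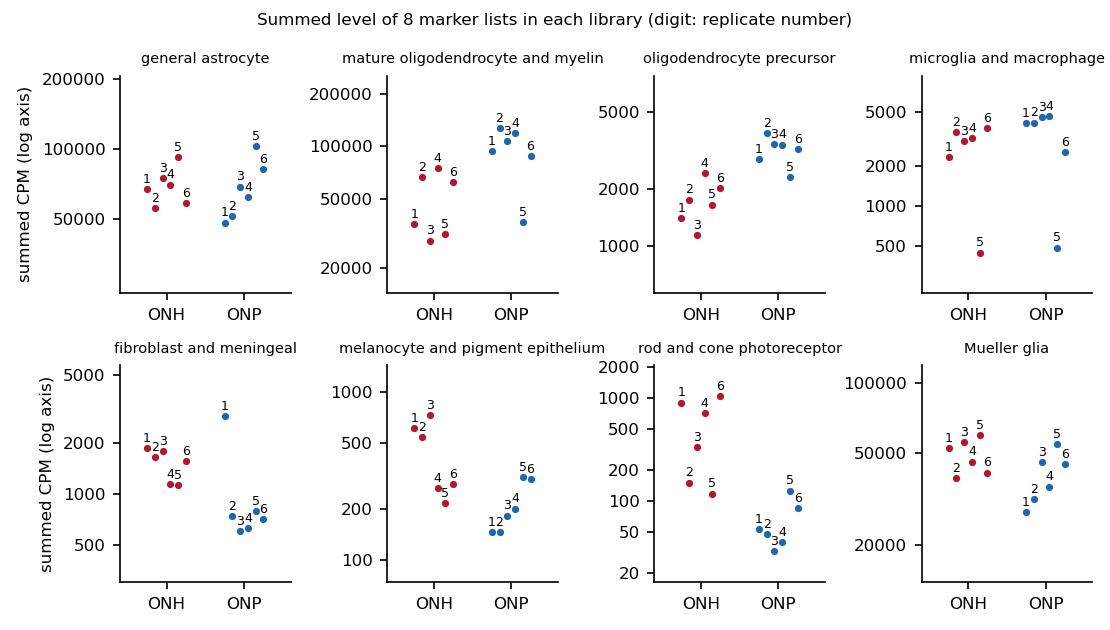
Summed CPM on a log axis of 8 marker lists in the 6 ONH libraries (red) and the 6 ONP libraries (blue), each marked with its replicate number. Replicate number 5 is low for microglia in both groups (448 and 489 CPM), and ONP replicate 1 is high for fibroblast genes (2870 CPM).

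Few general astrocyte genes were called without the block. Of 28 members tested, 0 were called higher and 2 lower, with a median of -0.142 and 20 negative estimates. With the block 2 were higher and 7 lower. Over all genes tested, 8.52% were called higher and 7.98% lower, and with the block 12.6% and 13.4%. Gfap had a log2 fold change of -0.30 (SE 0.274, adjusted p = 0.472), Aldh1l1, a folate enzyme gene used as a pan-astrocyte marker, one of -0.14 (SE 0.234, adjusted p = 0.722), and Sox9, the astrocyte transcription factor, one of 0.11 (SE 0.26, adjusted p = 0.806). Kcnj10, the main potassium channel of astrocytes, was at -0.09 (SE 0.144, adjusted p = 0.693) and Gja1, a gap junction subunit, at 0.32 (SE 0.229, adjusted p = 0.359). The signs of Aldh1l1, Sox9 and Kcnj10 turned when single libraries or replicate numbers were left out. A pair of genes of the astrocyte endfoot were called lower. Hepacam, a cell adhesion gene, ran from 140 over a median of 199 to 309 CPM in ONH and from 333 over 368 to 490 CPM in ONP, without overlap (-0.88, SE 0.184, adjusted p = 0.00895). Aqp4, the water channel, ran from 266 over 425 to 889 CPM and from 748 over 827 to 1501 CPM (-1.02, SE 0.291, adjusted p = 0.031). Its groups overlapped only through ONH replicate 5. Leaving out any one of ONH replicates 1, 2, 3 and 6 and ONP replicates 5 and 6 ended the call of Aqp4 (adjusted p = 0.0507 to 0.0728) and left 1 lower member in the list. Without ONH replicate 5, 5 members were lower.

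S100b, a calcium-binding protein, ran from 976 to 1797 CPM in ONH and from 936 to 1168 CPM in ONP (0.44, adjusted p = 0.0681, and 0.0374 with the block). The glutamate transporter gene Slc1a3 was at 0.51 (adjusted p = 0.212, and 0.0349 with the block) and its relative Slc1a2 at -0.66 (adjusted p = 0.146, and 0.00876 with the block). Their estimates pointed in opposite directions. Slc1a3 had 1411 to 2167 CPM in ONH and 670 to 2157 CPM in ONP, where replicates 5 and 6 were as high as ONH. With single libraries omitted, S100b was called without ONH replicate 2 or 4 (adjusted p = 0.0279 to 0.0321), Slc1a3 without ONP replicate 5 (adjusted p = 0.0431) and Slc1a2 without ONH replicate 5 (adjusted p = 0.0444). Cldn10, a claudin gene, was at 0.474 to 6.88 CPM in ONH and 0.933 to 6.72 CPM in ONP (0.23, adjusted p = 0.832).

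Genes for water, potassium and pH handling had 0 of 22 members higher and 5 lower, with a median of -0.353. With the block 1 was higher and 7 lower, and without both libraries of number 1 or of number 3 the lower count was 3. Next to Aqp4, the 2-pore potassium channel gene Kcnk1 ran from 9.96 to 25.9 CPM in ONH and from 28.1 to 50.1 CPM in ONP (-1.24, SE 0.276, adjusted p = 0.0118). Kcnj16, which forms channels with Kcnj10, was lower as well (-1.11, adjusted p = 0.011) although Kcnj10 was not called. Glutamate and GABA genes had 0 of 18 members higher and 7 lower, with a median of -0.65 (0 and 3 in the fit of 14 libraries with a batch term, 1 higher with the block, and 3 lower without both libraries of number 1). Maob, the amine oxidase of astrocytes, was at -1.12 (adjusted p = 0.0103), and Gria2, an AMPA receptor subunit, at -1.03 (adjusted p = 0.00894). Both Maob and Gria2 separated the groups in every library. In the fit of 14 libraries with a batch term Gria2 was not called (adjusted p = 0.101). Genes of oligodendrocyte precursors were lower in the same libraries (median -0.938), and their part in these calls was not tested.

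Oligodendrocyte genes were lower in ONH, and all of the 20 members of the mature list had negative estimates. Of them 12 were called lower and 0 higher, with a median of -0.999, and 20 with the block. In the fit without the block, this count depended on single libraries. Without ONP replicate 5 it was 20, and without ONH replicate 1 it was 3. It was 4 without any one of ONH replicates 3 and 5 and ONP replicates 2, 4 and 6, 5 without ONP replicate 1 and 6 without ONP replicate 3. It was 2 without both libraries of number 1. Without both libraries of number 5, 19 were called. limma-voom called 7, and the fit without the low-count filter 4. Mbp, myelin basic protein, stood at 14060, 20500 and 33550 CPM (lowest, median and highest) in ONH and at 16660, 42380 and 54450 CPM in ONP (-0.83, SE 0.322, adjusted p = 0.0919, and 0.0154 with the block). The lowest ONP library was replicate 5, and without it Mbp was called (adjusted p = 0.025). Fa2h, which makes the hydroxylated lipids of myelin, was at -1.86 (adjusted p = 0.0081), and the lineage factors Sox10 and Myrf were at -1.46 (adjusted p = 0.00808) and -1.25 (adjusted p = 0.0165).

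Precursor genes had 9 of 14 members lower and 0 higher, with a median of -0.938. Single-library omissions gave 7 to 10, and the omission of both libraries of number 1 gave 5. Olig1, a lineage transcription factor, ran from 325 over a median of 498 to 663 CPM in ONH and from 753 over 1065 to 1249 CPM in ONP (-1.07, SE 0.189, adjusted p = 0.00462), with no overlap. Tnr, the matrix protein tenascin-R, ran from 8.21 to 30.8 CPM and from 36.3 to 61.7 CPM (-1.36, SE 0.28, adjusted p = 0.00884). Pdgfra, the growth factor receptor of these precursors, was at -0.75 (adjusted p = 0.0223), but not called without ONH replicate 3 or ONP replicate 4 (adjusted p = 0.0533 to 0.0549). The summed precursor level of ONP replicate 5 (2300 CPM) lay just below that of the highest ONH library (2400 CPM). Microglia genes had 0 of 17 members called in either direction by edgeR, with a median of -0.257, and 4 lower with the block. At an unadjusted p under 0.05, 1 of them was lower and 0 were higher. DESeq2 called 1 lower and limma-voom 0. Without ONP replicate 5 edgeR called 1 lower, and without both libraries of number 5 it called 3.

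Cholesterol genes were the functional list with most members lower in ONH. Of 24 tested, 16 were called lower and 0 higher, with a median of -1.01. All ONH libraries lay below all ONP libraries in 9 of them, against 2.32% of all genes tested. Summed over the list, the level was not lower, at 29000 to 43800 CPM in ONH and 27000 to 42800 CPM in ONP. With the block the counts were 20 lower and 1 higher, and single-library omissions gave 15 to 19 lower. Without both libraries of number 5, 17 were lower, and without those of number 1, 12. Calls covered the route from Hmgcs1, the synthase at its entry, to Dhcr7, the last reductase. Hmgcs1, named after its values were seen, ran from 271 over a median of 605 to 773 CPM in ONH and from 778 over 1305 to 2044 CPM in ONP (-1.26, SE 0.255, adjusted p = 0.0081). Its groups were separated, though by a narrow margin. Dhcr7 ran from 17.4 over 30.2 to 47.9 CPM and from 55.7 over 84.5 to 122 CPM (-1.49, SE 0.251, adjusted p = 0.00383). Nsdhl (ENSMUSG00000031349, chromosome X, 72918557 to 72958514), a sterol dehydrogenase gene, ran from 15.2 to 29.2 CPM and from 41.2 to 50.7 CPM (-1.04, SE 0.162, adjusted p = 0.00246). Insig1, the sterol-sensing brake of the pathway and also named after its values were seen, was at -1.18 (SE 0.235, adjusted p = 0.00771). The myelin and precursor lists were lower in the same libraries, by medians of -0.999 and -0.938. Their part in the cholesterol result was not tested.

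**Figure D4:**
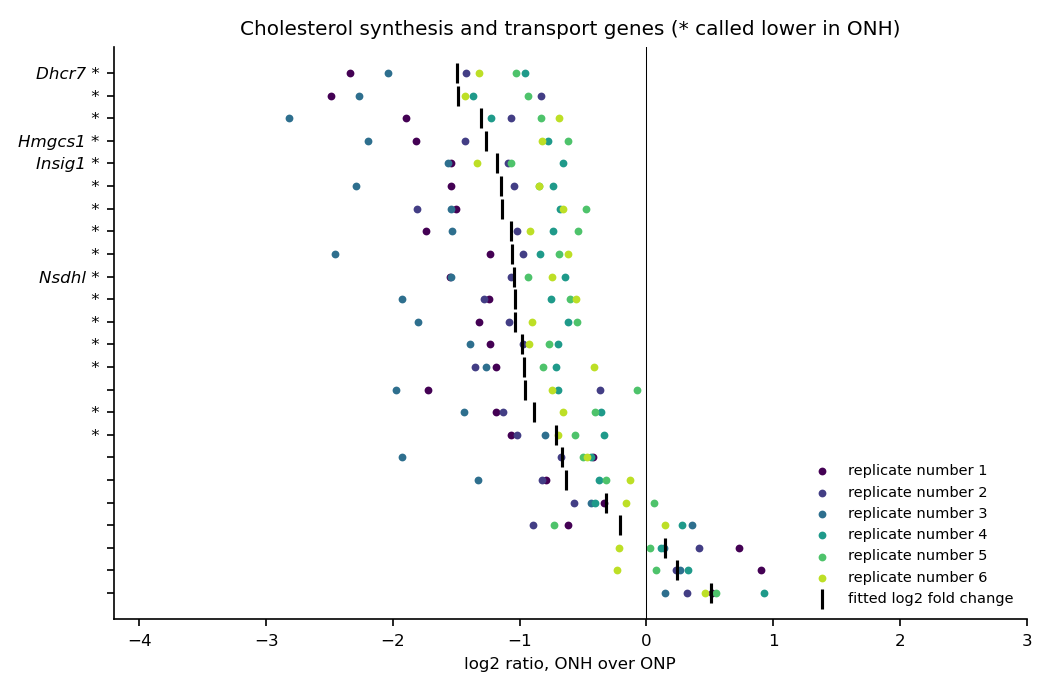
Log2 ratio of ONH over ONP within each of the 6 replicate numbers (coloured points) and the fitted log2 fold change (black bar) for the 24 cholesterol genes tested, with names for those given in the text. All 16 genes marked as called lower have ratios below 0 in every replicate number.

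The promoters of 3 of these genes are shown since members that moved together may be read for shared letters. Hmgcs1, Insig1 and Nsdhl and the motif CACNCCAC, a shape known for binding of SREBP factors, were chosen after the results were seen. Capitals mark CCAAT, the box bound by NF-Y, and CACNCCAC, each on either strand, so that CCAAT also appears as ATTGG.
Hmgcs1, chr13:119690101-119690400, plus strand: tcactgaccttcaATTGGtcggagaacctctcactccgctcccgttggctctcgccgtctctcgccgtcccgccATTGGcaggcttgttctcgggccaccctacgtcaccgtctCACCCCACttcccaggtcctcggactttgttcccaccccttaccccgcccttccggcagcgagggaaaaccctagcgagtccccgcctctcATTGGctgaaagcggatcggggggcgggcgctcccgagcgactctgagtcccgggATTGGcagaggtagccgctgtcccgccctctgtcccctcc
Insig1, chr5:28071162-28071461, plus strand: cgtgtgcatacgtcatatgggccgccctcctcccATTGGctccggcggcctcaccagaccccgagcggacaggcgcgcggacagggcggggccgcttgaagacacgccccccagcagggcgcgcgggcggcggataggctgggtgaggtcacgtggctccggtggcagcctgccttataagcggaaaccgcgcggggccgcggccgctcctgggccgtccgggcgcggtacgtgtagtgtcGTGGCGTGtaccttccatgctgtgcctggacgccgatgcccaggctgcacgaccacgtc
Nsdhl, chrX:72918271-72918570, plus strand: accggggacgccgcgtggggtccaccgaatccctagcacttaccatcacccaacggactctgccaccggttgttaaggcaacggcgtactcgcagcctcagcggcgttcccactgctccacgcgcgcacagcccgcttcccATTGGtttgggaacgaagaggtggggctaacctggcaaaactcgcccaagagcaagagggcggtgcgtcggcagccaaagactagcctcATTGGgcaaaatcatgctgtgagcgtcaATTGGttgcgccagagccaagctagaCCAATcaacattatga
Hmgcs1 held 4 CCAAT boxes, Insig1 held 1 and Nsdhl held 4. CACNCCAC was found 136 bases before the start of Hmgcs1 and 9 bases before that of Insig1, and not in the window of Nsdhl. Of the 24 cholesterol genes, 17 had a promoter in the table, and 15 of these held CCAAT, against 37.4% of all promoters and 42.7% of the 11113 tested genes with an entry. All 11 genes called lower that had an entry held CCAAT, and the same 11 held GGGCGG, which 67.7% of the tested genes with an entry also hold. CACNCCAC was in 2 of the 17, against 6.24% of all promoters. These matches describe the letters in the window and not a bound site.

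Fatty acid genes had 8 of 21 members lower and 2 higher, with a median of -0.367. Without ONH replicate 1 or 3, or ONP replicate 4 or 6, the count of lower genes was 5, and without the low-count filter it was 4. Only 1 was lower without both libraries of number 1. Scd2, a desaturase of brain lipid synthesis, ran from 1245 over a median of 2155 to 2917 CPM in ONH and from 3033 over 4187 to 5014 CPM in ONP (-0.90, SE 0.205, adjusted p = 0.0126). The elongase gene Elovl5 (-0.71, adjusted p = 0.00918) and the fatty acid synthase gene Fasn (-0.82, adjusted p = 0.0104) were lower too. The 2 higher members do not make fatty acids but bind or take them up. Fabp3, a fatty acid-binding protein, ran from 4.63 to 10.04 CPM and from 0.909 to 2.74 CPM (1.66, SE 0.295, adjusted p = 0.00463). Cd36, a fatty acid receptor, ran from 0.339 to 32.6 CPM and from 0 to 1.79 CPM (3.76, SE 0.933, adjusted p = 0.0182), and was not called by limma-voom or without the low-count filter.

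Transcription factors of the eye field and optic stalk had 10 of 18 tested members higher in ONH and 0 lower, with a median of 0.992. With the block 14 were higher, and single-library omissions gave 8 to 12. It was 5 without both libraries of number 1 and 6 without those of number 3. Vax2, which patterns the ventral eye, ran from 4.13 over a median of 5.78 to 12.6 CPM in ONH and from 1.01 over 1.45 to 2.91 CPM in ONP (2.06, SE 0.354, adjusted p = 0.00409). Its relative Vax1, an optic stalk factor, was at 1.70 (adjusted p = 0.0191). Nr2f2, an orphan nuclear receptor gene, ran from 48.5 to 60.8 CPM and from 19.6 to 39.4 CPM (0.85, SE 0.148, adjusted p = 0.00431). Six6, an eye-field gene linked to glaucoma, ran from 41.2 to 82.9 CPM and from 15.1 to 37.3 CPM (1.26, SE 0.241, adjusted p = 0.00651). All 3 of Vax2, Nr2f2 and Six6 separated the groups without overlap. Otx2, which specifies pigment epithelium and photoreceptors, was at 5.21 (adjusted p = 0.00453), with 0.881 to 11.1 CPM in ONH and at most 0.629 CPM in ONP. Pax2, the classical marker of optic stalk astrocytes, had few counts in both groups, at 0.991 to 3.18 CPM in ONH and 0.536 to 2.31 CPM in ONP (0.79, SE 0.454, adjusted p = 0.251). Pax8, a paired-box factor, ran from 0.406 to 9.96 CPM and from 0 to 4.22 CPM (1.72, SE 0.932, adjusted p = 0.222, and 0.0323 with the block). Photoreceptor and pigment genes were higher in the same libraries, and their part in the higher eye-field factors was not tested.

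**Figure D5:**
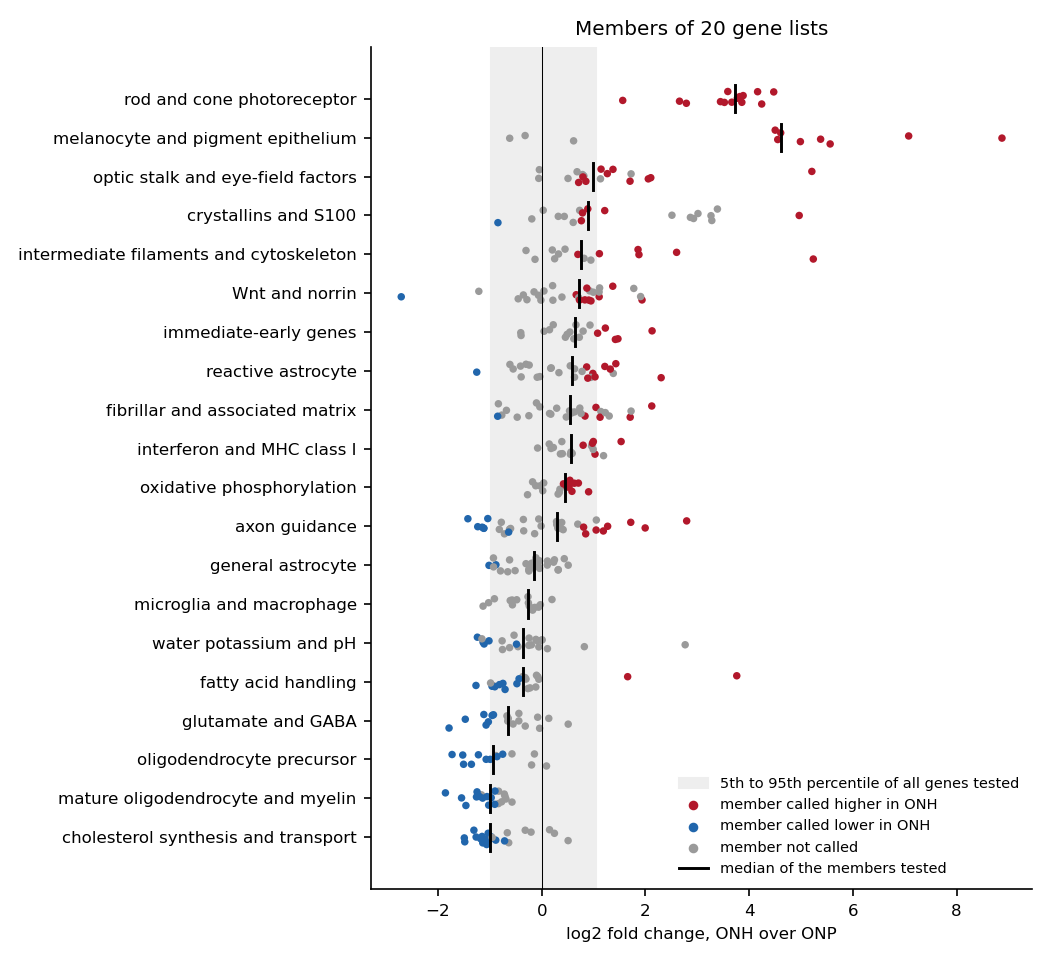
Log2 fold change of ONH over ONP for the tested members of 20 gene lists, 1 point per gene, coloured by call, with the median of each list as a black bar and the range from the 5th to the 95th percentile of all genes tested in grey. The photoreceptor and pigment lists have the highest medians of the 20 (3.72 and 4.61), and the cholesterol and myelin lists the lowest (-1.01 and -0.999).

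Cytoskeletal genes had 6 of 14 tested members higher and 0 lower, with a median of 0.757. Nes, the intermediate filament nestin of immature and reactive glia, ran from 68.4 over a median of 179 to 212 CPM in ONH and from 16.9 over 40.9 to 94.3 CPM in ONP (1.86, SE 0.366, adjusted p = 0.00762). Only ONH replicate 2 lay within the ONP range. Vim, vimentin, stood at 1851 to 4543 CPM and 741 to 3362 CPM (0.95, SE 0.309, adjusted p = 0.0504, and 0.00612 with the block). Without ONH replicate 2 or ONP replicate 5 it was called (adjusted p = 0.00628 to 0.035). Lmna, a nuclear lamina gene, ran from 301 to 357 CPM and from 164 to 254 CPM (0.70, SE 0.112, adjusted p = 0.00302). Myl9, a myosin light chain, ran from 58.8 to 123 CPM and from 24.6 to 52.8 CPM (1.11, SE 0.218, adjusted p = 0.00743). Cnn1, the actin-binding calponin of smooth muscle, ran from 10.7 to 59.2 CPM and from 0.14 to 4.23 CPM (4.15, SE 0.685, adjusted p = 0.00355). Pericyte and smooth muscle genes had 4 of 13 members higher and 0 lower (2 higher without the low-count filter, 1 lower without ONP replicate 2), and their summed level was 413 to 559 CPM in ONH and 348 to 732 CPM in ONP.

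Matrix gene counts are given beside the shares over all genes tested, 8.52% higher and 7.98% lower (12.6% and 13.4% with the block). Fibrillar and associated matrix genes had 5 of 26 members higher and 1 lower, with a median of 0.555, and 11 higher with the block. Without ONP replicate 1, the library rich in fibroblast genes, 13 were higher, and without both libraries of number 3, 2 were. Sparc, a secreted calcium-binding matrix protein, ran from 6702 over a median of 10310 to 11990 CPM in ONH and from 3060 over 4103 to 6356 CPM in ONP (1.12, SE 0.217, adjusted p = 0.0068). Its relative Sparcl1 was the member called lower, from 579 over 677 to 1047 CPM and from 897 over 1305 to 2215 CPM (-0.85, SE 0.217, adjusted p = 0.0195). Thus the 2 related genes differed in opposite directions, though Sparcl1 was not called without both libraries of number 1, 3 or 6. Col8a1, a short-chain collagen, ran from 40.9 to 109 CPM and from 11.2 to 21.8 CPM (2.12, SE 0.262, adjusted p = 0.000664). Col1a2, a fibrillar collagen of fibroblasts, ran from 207 to 557 CPM and from 61.5 to 358 CPM, with its highest ONP value in replicate 1 (1.71, SE 0.399, adjusted p = 0.0147). In the fibroblast list, 2 of 17 tested genes were called higher and 1 lower, and 8 and 1 with the block. Without ONP replicate 1, 9 of them were higher, and without any one of ONH replicate 3, ONP replicate 2 and ONP replicate 4, 1 was. The lower member was Pdgfra, which is also in the precursor list, and its call was lost without ONH replicate 3 or ONP replicate 4. The part of fibroblast RNA in the matrix genes was not tested.

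The lecticans, tenascins and hyaluronan genes, which build the perineuronal and perinodal matrix, had 1 of 10 tested members higher and 2 lower, with a median of -0.578. Without ONH replicate 4, 5 were lower, and without both libraries of number 1, 3 or 6, 1 was. Bcan, the lectican brevican, ran from 152 over a median of 206 to 415 CPM in ONH and from 343 over 463 to 921 CPM in ONP (-1.13, SE 0.281, adjusted p = 0.0181). Its highest ONH value and its highest ONP value were both in replicate 5. The other lower member was Tnr, which is also in the precursor list. Tnc, tenascin-C, was the higher member, from 3.18 to 22.7 CPM and from 0.14 to 4.75 CPM (2.82, SE 0.635, adjusted p = 0.0126).

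Laminin and basement membrane genes had 3 of 21 members higher and 0 lower, with a median of 0.473, and 7 higher with the block. Without ONH replicate 1, ONH replicate 3 or ONP replicate 4 it was 2, without both libraries of number 3 it was 1, without ONH replicate 5 it was 5, without ONP replicate 1 it was 6 and without ONP replicate 5 it was 7. Col18a1, the source of endostatin, ran from 83.9 over a median of 99.0 to 126 CPM and from 31.0 over 37.9 to 50.02 CPM (1.37, SE 0.138, adjusted p = 0.00019). Timp1, an inhibitor of matrix proteases, ran from 8.21 to 27.9 CPM and from 4.49 to 10.5 CPM (1.43, SE 0.297, adjusted p = 0.00894). Fbln2, a fibulin gene, did not pass (0.03, SE 0.585, adjusted p = 0.976), and its sign turned with the block. Myoc, the trabecular meshwork glycoprotein myocilin, stood at 0.474 to 2.42 CPM in ONH and 0.965 to 15.8 CPM in ONP (-1.63, adjusted p = 0.121), with the highest value in ONP replicate 1.

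Wnt and norrin genes were mostly higher where they were called, while TGF-beta and BMP genes were called in both directions with the block. The Wnt and norrin list had 9 of 28 members higher and 1 lower, with a median of 0.721, and single-library omissions gave 6 to 11 higher. The omission of both libraries of number 3 left 5 higher, and that of number 1, 2 or 4 left 0 lower. Fzd1, a Wnt receptor, ran from 60.0 over a median of 101 to 106 CPM in ONH and from 18.6 over 29.4 to 59.8 CPM in ONP (1.37, SE 0.282, adjusted p = 0.00884). Tspan12, a co-receptor of norrin, ran from 139 to 212 CPM and from 60.6 to 121 CPM (0.95, SE 0.168, adjusted p = 0.00462). Nkd1, an inhibitor induced by Wnt signals, ran from 155 to 218 CPM and from 99.4 to 117 CPM (0.73, SE 0.102, adjusted p = 0.00127). None of these 3 overlapped. The Wnt enhancer gene Rspo1 was the member called lower, from 0 to 1.69 CPM and from 1.54 to 11.9 CPM (-2.71, SE 0.719, adjusted p = 0.023).

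TGF-beta and BMP genes had 4 of 26 members higher and 0 lower, with a median of 0.183, and 7 higher without ONP replicate 5. With the block 4 were higher and 2 lower, and without ONH replicate 4, 1 was lower. Of the 26 estimates, 18 were positive and 8 negative. Over all genes tested, 8.52% were called higher and 7.98% lower, and with the block 12.6% and 13.4%. Gdf10, a secreted ligand of this family, ran from 186 over a median of 318 to 374 CPM in ONH and from 19.1 over 59.0 to 152 CPM in ONP (1.94, SE 0.416, adjusted p = 0.0104). Ltbp1, which holds latent TGF-beta in the matrix, ran from 80.5 to 147 CPM and from 11.8 to 60.9 CPM (1.59, SE 0.359, adjusted p = 0.0126), and Ltbp3 was at 1.00 (adjusted p = 0.00776). Tgfb2, the ligand raised in glaucomatous eyes, ran from 433 to 804 CPM and from 151 to 494 CPM (1.10, SE 0.287, adjusted p = 0.0222), but was not called without ONP replicate 4 (adjusted p = 0.053). In ONP, replicates 5 and 6 were the highest for both Gdf10 and Tgfb2. Bmp4, a BMP ligand, was at -0.47 (SE 0.229, adjusted p = 0.171). Ptch1, the hedgehog receptor, was at 0.89 (SE 0.202, adjusted p = 0.0127). Ednrb, the endothelin receptor of astrocytes, stood at 1127 to 1629 CPM in ONH and 348 to 1428 CPM in ONP (0.72, SE 0.284, adjusted p = 0.0956, and 0.0171 with the block). Without ONP replicate 5 Ednrb was called (adjusted p = 0.0244).

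Genes of reactive astrocytes had 8 of 26 members higher and 1 lower (0 lower without ONH replicate 1 or 3), with a median of 0.591. Without both libraries of number 3, 5 were higher. Tm4sf1, a membrane protein of reactive astrocytes, ran from 56.3 to 167 CPM in ONH and from 28.1 to 65.3 CPM in ONP (1.22, SE 0.246, adjusted p = 0.00822). Hspb1, a small heat-shock protein, ran from 119 to 315 CPM and from 69.7 to 175 CPM (0.87, SE 0.259, adjusted p = 0.0368). The call of Hspb1 was lost in 8 of the 12 single-library omissions, those of ONH replicates 1, 3 and 5 and ONP replicates 1, 2, 3, 4 and 6 (adjusted p = 0.0507 to 0.0897). Lgals3, galectin-3, which glia use in phagocytosis, stood at 722 to 1280 CPM and 211 to 1079 CPM (0.73, SE 0.306, adjusted p = 0.117, and 0.0107 with the block), and was called without ONP replicate 5 (adjusted p = 0.0117). The phagocytic bridging protein gene Pros1 ran from 574 over a median of 896 to 965 CPM and from 193 over 284 to 494 CPM, without overlap (1.43, SE 0.217, adjusted p = 0.00222). Gpc4, a glypican that astrocytes release to promote synapses, was at 1.17 (SE 0.207, adjusted p = 0.00462). S100a6, a calcium-binding protein, ran from 292 to 755 CPM and from 104 to 336 CPM (1.22, SE 0.301, adjusted p = 0.0181).

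Genes tied to axons were split. Ganglion cell and axon genes had 4 of 11 tested members higher and 2 lower, with a median of 0.949. The lower count was 1 without any one of ONH replicates 1, 3 and 5 and ONP replicates 1 and 4, and 0 without both libraries of number 1 or of number 3. Nefh, the heavy neurofilament subunit, ran from 14.1 over a median of 34.97 to 47.2 CPM in ONH and from 0.288 over 3.09 to 5.66 CPM in ONP (3.34, SE 0.545, adjusted p = 0.00344). Nefl, the light subunit, was at 1.90 (SE 0.388, adjusted p = 0.00854), and Uchl1, a neuronal ubiquitin hydrolase, at 0.99 (SE 0.211, adjusted p = 0.0102). The lower members were Tubb3 and Gap43. Tubb3, the neuronal beta-tubulin, ran from 43.9 over a median of 66.98 to 112 CPM and from 65.2 over 154 to 215 CPM (-1.03, SE 0.288, adjusted p = 0.0287). Its call was lost in those same 5 single-library omissions (adjusted p = 0.0514 to 0.0671) and without the low-count filter. Gap43, a protein of growing axons, ran from 27.3 over 37.2 to 41.6 CPM and from 36.7 over 56.2 to 73.1 CPM (-0.62, SE 0.155, adjusted p = 0.0183). In both genes the lowest ONP value was that of replicate 5. The whole list summed to 327 to 430 CPM in ONH and to 257 to 407 CPM in ONP. Ngfr, the low-affinity neurotrophin receptor, ran from 5.50 to 13.3 CPM and from 0.75 to 2.38 CPM (2.57, SE 0.301, adjusted p = 0.00049). Igfbp5, an insulin-like growth factor binding protein, ran from 218 to 367 CPM and from 128 to 201 CPM (0.86, SE 0.153, adjusted p = 0.00462). Both Ngfr and Igfbp5 separated the groups in every library.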

How the data were processed

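RNA was measured in 12 mouse libraries, 6 ONH IP and 6 ONP IP. The authors deposited estimated counts per gene, made with Salmon 1.6.0 and mm10 per the submitters' processing notes. They are whole numbers for 54532 genes and were used as they stand. How strand was treated is not given in the sources used here, so overlapping genes and near-identical copies, such as those of respiratory chain genes, may share reads. GENCODE M21 gave symbols for 54409 genes. In the 12 libraries 27770 genes had 0 counts.

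edgeR 4.0.16 in R 4.3.3 was used with TMM size factors, filterByExpr (minimum count 10, minimum total 15), the robust quasi-likelihood F test and Benjamini-Hochberg adjustment over all 14753 genes kept. Each SE is the absolute log2 fold change over the square root of the F statistic. A second fit added the replicate number as a block. Same-numbered libraries deviated together from their group means (correlations 0.196 to 0.647 over 10875 genes with at least 5 CPM, against a median of -0.0887 for other pairs). Other pairs ran from -0.441 to 0.302, so some exceeded the lowest same-number pair. Since deviations are taken from group means, the negative median is in part set by that step and is no independent reference. The numbers were therefore taken as pairing, though the labels do not say what they mark. Blocked values are printed where they change a call or move a count by over 1.5 times.

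The members and the 49 gene lists were chosen with earlier results of these data known, so list counts and medians are descriptions. Named genes came from 3 rules. The first took the 12 largest changes per direction among genes called in both fits, with a regular symbol, no overlap between groups and an average of 10 CPM or more where they were higher. The second took, by smallest p, up to 3 called genes of each list in its main direction and up to 2 in the other. The third was a fixed set given whatever it did. Not every gene of the rules is reported here. Alternatives were RLE size factors, a fit with no filter on low counts, DESeq2 1.42.0, voom of limma 3.58.1, a 2-fold threshold, 14 libraries with a batch term, size factors without myelin genes, and the omission of each library. The omission of both libraries of 1 replicate number was added after seeing the data. For gene lists and named genes, all omissions are those of the fit without the block.

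Counts simulated for these 14753 genes checked the test. It called 52 of 100 genes changed 2-fold, 94 of 100 changed 4-fold and 6 of 14553 unchanged genes, and with the block 45, 91 and 7, with 0 calls in the wrong direction. The simulated libraries were independent, with no effect of replicate number, and far fewer genes were changed than were called in the data. These counts therefore cannot show which fit finds more in these data, or how often a 2-fold change is found in them. Promoters came from RefSeq's GRCm38.p6 table.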

Additional observations from a re-analysis of the deposited data

Results flagged for a closer look

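In groups of 6 libraries, 14 of 238 group values of the named genes had 1 library far from the other 5, by Dixon's ratio on log2(CPM + 0.5). Chance alone gives about 1 in 20 groups. In the ONP libraries, Cartpt stood at 36.0 CPM in replicate 5 and at 1.39 to 4.4 CPM in the others. Prss56 also stood out in ONP replicate 5, at 8.74 CPM against 0.14 to 0.646 CPM. Tubb3 was low in that library, at 65.2 CPM against 145 to 215 CPM. In ONP replicate 6, the pigment epithelium gene Slc16a8 stood at 3.57 CPM (others 0 to 0.336 CPM), Pon1 at 1.12 CPM (0 to 0.192 CPM) and Otx2 at 0.629 CPM (0 to 0.144 CPM). In ONP replicate 1, Col1a2 stood at 358 CPM (61.5 to 113 CPM) and Myoc at 15.8 CPM (0.965 to 2.46 CPM). In ONP replicate 4, Susd5 stood at 82.3 CPM (43.5 to 49.9 CPM) and Gria2 at 17.1 CPM (12.4 to 13.9 CPM). Among the ONH libraries, replicate 4 was low for Col1a2, at 207 CPM against 404 to 557 CPM, and for Fzd1, at 60.0 CPM against 94.1 to 106 CPM. ONH replicate 3 was low for Insig1, at 27.7 CPM against 57.3 to 82.5 CPM, and for Gap43, at 27.3 CPM against 35.7 to 41.6 CPM.

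The comparison left out 1 ONH library of batch 2, replicate 7. Scaled together with the other 13 nerve libraries, its photoreceptor genes summed to 59400 CPM, against 119 to 1050 CPM in the 6 ONH libraries of batch 1.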

How the results depend on the processing

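Against a 2-fold threshold 63 genes were higher and 0 lower, and the replicate block gave 1978 lower genes, against 1178 with no block. Other tools and scalings left both counts within 1.5 times. Omission of 1 library or of both libraries of a number gave 487 to 1573 higher and 243 to 1582 lower genes, the smallest without number 1, and 1249 to 1628 and 1386 to 1698 with the block. Number 1 moved the higher share of calls from 51.6% to 66.7%. The block turned Fbln2 to -0.11 and limma-voom turned it to -0.0703. Under omissions Fbln2 ran from -0.21 to 0.38, Aldh1l1 from -0.31 to 0.0389, Sox9 from -0.0252 to 0.37, Cldn10 from -0.25 to 0.75 and Kcnj10 from -0.18 to 0.0406. The cause was not tested. Of the 119 genes named, 101 were called without and with the block in 1 direction. In the simulation, which held no replicate effect and few changed genes, 52 of 100 genes changed 2-fold were called. Smaller differences may be missed at this depth and number of libraries, but how often was not tested.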

Other observations

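Respiratory chain genes had 11 of 20 members higher in ONH and 0 lower, with a median log2 fold change of 0.452. The count fell to 5 without ONH replicate 1, to 6 without any one of ONH replicate 3 and ONP replicates 4 and 6, and to 7 without any one of ONH replicate 5 and ONP replicates 1 and 2. It was 6 in the fit of 14 libraries with a batch term, 7 without the low-count filter and 1 without both libraries of number 1. Uqcrq, a subunit of complex III, ran from 72.9 to 140 CPM in ONH and from 52.8 to 71.8 CPM in ONP (0.71, SE 0.152, adjusted p = 0.0103, edgeR). Cox4i1, of cytochrome oxidase, was at 0.58 (adjusted p = 0.0133) and Ndufa1, of complex I, at 0.90 (adjusted p = 0.00817). Mitochondrially encoded genes had 1 of 11 higher and 0 lower, and 2 higher with the block. The higher call was lost without any one of ONH replicates 1, 2, 3 and 5 and ONP replicates 1 to 4, and 1 was lower without ONH replicate 4.

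Interferon and antigen presentation genes had 5 of 19 members higher and 0 lower, with a median of 0.564, and 13 higher with the block. Without ONP replicate 6 it was 11, without ONH replicate 3 or ONP replicate 4 it was 2, and without ONH replicate 1 or ONP replicate 1 or 2 it was 3. Without both libraries of number 3 it was 1. Psmb8, an immunoproteasome subunit, ran from 51.2 to 148 CPM in ONH and from 30.5 to 59.7 CPM in ONP (1.03, adjusted p = 0.0119). Isg15, a ubiquitin-like protein induced by interferon, was at 1.53 (adjusted p = 0.0139). Immediate-early genes had 5 of 18 higher and 0 lower, and 9 with the block. It was 9 without ONH replicate 4, 2 without ONH replicate 3 or ONP replicate 4, and 3 without ONH replicate 6 or ONP replicate 1 or 2. It was 1 without both libraries of number 1 or of number 3. Ier2 ran from 17.8 to 46.4 CPM and from 8.55 to 17.4 CPM (1.23, adjusted p = 0.00867), and Btg2 was at 1.08 (adjusted p = 0.014).

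Angiogenic and hypoxia genes had 6 of 21 members higher and 0 lower, with 3 higher without ONH replicate 3, without ONP replicate 2 or without the low-count filter. With the block 5 were higher and 2 lower, and without ONP replicate 5, 1 was lower. Adm, the vasodilator adrenomedullin, ran from 19.7 to 55.7 CPM in ONH and from 4.12 to 13.6 CPM in ONP (2.00, SE 0.293, adjusted p = 0.00191). Nrp1, a receptor of semaphorins and VEGF, was at 0.81 (adjusted p = 0.005). Axon guidance genes were called in both directions, 8 higher and 7 lower of 35. The higher count was 5 without any one of ONH replicate 5 and ONP replicates 1 to 4. The lower count was 3 without ONH replicate 1 or 3 and 4 without any one of ONH replicate 5 and ONP replicates 2 and 4. Without both libraries of number 1, 3 were higher and 0 lower. Efna5, an ephrin, ran from 10.6 to 31.7 CPM and from 4.07 to 5.80 CPM (2.00, SE 0.256, adjusted p = 0.000791). Slit3, a repellent, was at 2.79 (adjusted p = 0.0149), while Efnb3, a repellent ephrin found in myelin, was at -1.42 (adjusted p = 0.0108). Gpx3, the secreted glutathione peroxidase, ran from 38.9 to 180 CPM and from 15.4 to 23.6 CPM (2.42, SE 0.312, adjusted p = 0.000886).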
